A study of Mus musculus with 79 samples.

Results

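Rcan1, Errfi1, Ackr3 and Ctgf are 4 mouse genes whose RNA rose more with low oxygen in the lung than with the same exposure in the kidney. They are followed here through every group of the study. They were picked by name because their rise at 6% oxygen was larger in lung than in kidney, with no numeric threshold, and all 4 of the 15198 gene symbols in the count tables were present in each of the 5 tables. The lung and kidney values therefore chose the genes and are given as a description with no test, while the liver values were not used in the choice and were tested. Mice of the C57BL/6 strain, 3 months old and kept for 2 weeks in 12 h of light and 12 h of dark, breathed either 6% oxygen balanced with nitrogen or 21% oxygen (synthetic air) for 4 h in a sealed cage with constant gas flow. In the first set, liver, kidney and lung were taken from wild-type mice exposed at zeitgeber time (ZT, hours after lights on) 4-8 or 16-20. In the second set, only liver was taken, from wild-type mice and from mice labelled as a Per1,2 double knock-out (KO), which had been moved to constant darkness 2 days before exposure at circadian time (CT) 4-8 or 16-20. There were 20 groups of 4 mice, except that KO liver at CT16-20 and 6% oxygen had 3, giving 79 RNA libraries, 1 for each mouse and organ. Libraries of a group are named A to D.

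The 4 genes act at different points of signalling. Rcan1 encodes a regulator that binds and inhibits calcineurin, the calcium-activated phosphatase that sends NFAT transcription factors into the nucleus, and NFAT in turn switches on a downstream start site of Rcan1. Errfi1 (also called MIG6) binds the kinase domain of the EGF receptor and its relatives and shuts them off, and it is itself induced by the signalling it limits. Ackr3 (CXCR7) is an atypical chemokine receptor that binds CXCL12, couples to arrestin rather than to G proteins, and removes its ligands, adrenomedullin among them, from the surroundings. Ctgf (now named Ccn2) encodes a secreted protein of the CCN family that attaches to the extracellular matrix and is a much used target gene of YAP and TAZ acting through TEAD factors.

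In the mm10 genome, with GENCODE vM21 annotation, Rcan1 lies on the minus strand at chr16:92391953-92470867 with 7 transcripts, and Errfi1 on the plus strand at chr4:150853919-150868892 with 3. Ackr3 lies on the plus strand at chr1:90203980-90216751 with 2 transcripts, and Ctgf on the plus strand at chr10:24595442-24598683 with 3. Rcan1, Errfi1 and Ctgf overlap a gene annotated on the other strand (Gm46555, 1700045H11Rik and Gm15270). None of those 3 symbols is listed in the tables, and the strand setting of the counting is not given in the sources used here, so a read from either strand of these loci could have entered the same count. RefSeq's promoter windows (build GRCm38.p6, 250 bases before to 50 after a start) were matched for 3 of the 4 genes, Ctgf being the gene without an entry. The windows below are shown because all 3 genes were high in lung at 6% oxygen, and because each carries a different set of short motifs. Capitals mark the letters of a searched motif, read 5′ to 3′ on the gene's strand: TGACGTCA (the cAMP response element), TGANTCA (the AP-1 motif), GGAAA (the NFAT core), and ACGTG and GCGTG (the hypoxia-inducible factor cores), each searched on both strands.
Rcan1 downstream start, chr16:92400029-92400328, minus strand: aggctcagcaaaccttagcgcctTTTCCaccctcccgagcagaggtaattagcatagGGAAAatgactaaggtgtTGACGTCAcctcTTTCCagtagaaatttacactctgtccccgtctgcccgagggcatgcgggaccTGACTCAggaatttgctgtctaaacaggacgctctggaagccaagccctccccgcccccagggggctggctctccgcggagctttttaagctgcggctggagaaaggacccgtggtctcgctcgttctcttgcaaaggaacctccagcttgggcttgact
Errfi1 downstream start, chr4:150854820-150855119, plus strand: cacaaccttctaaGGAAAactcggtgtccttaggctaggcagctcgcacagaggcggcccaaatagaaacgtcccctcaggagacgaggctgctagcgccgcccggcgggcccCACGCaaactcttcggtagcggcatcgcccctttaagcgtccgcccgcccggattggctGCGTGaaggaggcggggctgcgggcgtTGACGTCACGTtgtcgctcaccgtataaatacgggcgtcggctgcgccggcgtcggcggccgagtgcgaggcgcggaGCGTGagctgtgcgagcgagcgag
Ackr3, chr1:90203730-90204029, plus strand: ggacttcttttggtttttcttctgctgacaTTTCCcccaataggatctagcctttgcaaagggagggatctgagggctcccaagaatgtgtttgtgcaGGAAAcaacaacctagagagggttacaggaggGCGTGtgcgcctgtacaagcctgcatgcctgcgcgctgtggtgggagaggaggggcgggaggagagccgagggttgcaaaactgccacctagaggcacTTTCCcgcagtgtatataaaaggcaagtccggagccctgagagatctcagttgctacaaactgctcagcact
Counting the start site as position 0, the Rcan1 window holds the cAMP response element at -175, the AP-1 motif at -110 and the NFAT core at 3 positions (-227, -193 and -163). The Errfi1 window holds the cAMP response element at -51, with ACGTG at -45 overlapping it, GCGTG at -137, -78 and 26, and an NFAT core at -237. The Ackr3 window holds GCGTG at -120 and the NFAT core at -220, -152 and -22. Of all 32851 promoter windows of this length, 1.79% hold the cAMP response element and 7.81% the AP-1 motif. ACGTG is in 19.6%, GCGTG in 32.4% and the NFAT core in 61.3%, so a match to the last is common. Rcan1's upstream start (chr16:92466120-92466419) holds only ACGTG, inside CACGTG (an E-box, in 7.15% of windows) at -191, and Errfi1's upstream start (chr4:150853546-150853845) only GGAATG (a TEAD motif, in 14.7% of windows) at -65. A match is a string of letters, and gene counts do not tell the start sites apart.

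Library totals lay between 1443279 and 6744476 gene counts (median 3016455), with 1649023 to 4349076 in lung, 2148455 to 3913899 in kidney and the whole range in liver. Levels below are CPM, a gene's count set against its library's total and scaled by TMM (trimmed mean of M-values) within a table, so a level set across tables carries the scaling of each. In air, Per1 stood at 16.1 to 38 CPM in wild-type liver at CT4-8 and 20.1 to 35 CPM in liver labelled KO, and Per2 at 5.32 to 9.82 and 4.83 to 11.3 CPM. At CT16-20 in air, Per1 stood at 33.2 to 54.5 and 23.7 to 35.9 CPM and Per2 at 10.2 to 17.4 and 4.57 to 11.3 CPM, so in air the labels overlapped for both genes at both times. At 6% oxygen Per1 separated them, with 45.3 to 84.8 CPM in wild type against 14.9 to 21.1 CPM in KO at CT4-8 and 61.5 to 76.7 against 15.7 to 31.2 CPM at CT16-20. Per2 at 6% was higher in KO at CT4-8 (2.94 to 10.9 against 18.8 to 31.1 CPM) and overlapped at CT16-20 (7.89 to 29.4 against 20.1 to 32.2 CPM). Which exons the deletions remove is not given in the sources used here. In lung, 3 air libraries (ZT4-8 B and C, ZT16-20 D) held 2840 to 7710 CPM of 10 squamous epithelium and skeletal muscle genes, a list chosen after the data were seen, against 11.5 to 90.3 CPM in the other 13 lung libraries. In wild-type darkness liver, CT4-8 air A stood apart, with a mean correlation to its group of 0.9129 against 0.9527 to 0.973 for the other 15 libraries, and with 0.386% of its counts from the ribosomal RNA gene Rn45s against 0.0251% to 0.0647%.

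Rcan1, the calcineurin inhibitor, was over 5-fold higher at 6% oxygen in lung, while its kidney groups overlapped. In lung at ZT4-8 the air libraries A to D held 22.5, 28.3, 24.3 and 19.0 CPM and the 6% libraries 129, 93.9, 126 and 127 CPM. At ZT16-20 they held 22.8, 14.8, 20.3 and 14.7 CPM in air and 122, 129, 108 and 119 CPM at 6%. Every lung library at 6% lay above every lung library in air. In lung 22.6% and 21.1% of all genes passed edgeR's test for oxygen (adjusted p under 0.05) at ZT4-8 and ZT16-20. How many of all genes have lung groups that separate was not counted. The log2 difference was 2.34 ± 0.15 (SE), or 5.07-fold, at the earlier time and 2.69 ± 0.16 at the later. In kidney at ZT4-8 Rcan1 stood at 59.2, 68.5, 63.5 and 75.3 CPM in air and at 57.8, 40.6, 64.6 and 51.0 CPM at 6%. At ZT16-20 it stood at 69.6, 66.4, 65.4 and 48.9 CPM in air and 58.7, 72.3, 59.5 and 72.5 CPM at 6%. These kidney groups overlapped at both times, with log2 differences of -0.31 ± 0.15 and 0.07 ± 0.15, and kidney in air held more Rcan1 CPM than lung in air.

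Errfi1, the feedback inhibitor of EGF receptors, started low in lung and at 6% oxygen reached the level of the liver. Lung air libraries held 128, 91.6, 103 and 102 CPM at ZT4-8 against 530, 848, 863 and 642 CPM at 6%. At ZT16-20 the values were 111, 92.8, 184 and 126 CPM in air and 800, 473, 569 and 723 CPM at 6%. No lung library at 6% came near the air range, and the log2 differences were 2.76 ± 0.22 and 2.31 ± 0.22. Kidney held 432, 462, 510 and 424 CPM in air and 448, 753, 391 and 462 CPM at 6% at ZT4-8. At ZT16-20 kidney held 345, 316, 332 and 341 CPM in air and 501, 456, 468 and 334 CPM at 6%. The kidney groups overlapped at both times, with differences of 0.17 ± 0.16 and 0.40 ± 0.16. Library B at ZT4-8 and 6% (753 CPM) was the highest kidney library.

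Ackr3, the scavenging CXCL12 receptor, was likewise high in lung at 6%. Its lung air libraries held 27, 30.3, 33.9 and 29.6 CPM at ZT4-8 and its 6% libraries 238, 188, 175 and 158 CPM. At ZT16-20 the air libraries held 35.4, 24.8, 51.1 and 28.5 CPM and the 6% libraries 197, 163, 134 and 177 CPM. The groups did not overlap at either time, and the log2 differences were 2.65 ± 0.18 and 2.24 ± 0.18. In kidney the ZT4-8 libraries held 55.5, 56.7, 62.4 and 76.8 CPM in air and 71.4, 91.3, 81.9 and 62.7 CPM at 6%. The ZT16-20 kidney libraries held 85.3, 86.3, 106 and 101 CPM in air and 126, 94.7, 124 and 107 CPM at 6%. Kidney differences were 0.29 ± 0.14 and 0.25 ± 0.14 with overlapping groups. Kidney air libraries were 0.59 ± 0.14 (log2) higher in Ackr3 at ZT16-20 than at ZT4-8, with no overlap. The same difference was -0.09 ± 0.15 for Rcan1, -0.45 ± 0.16 for Errfi1 (also without overlap) and 0.05 ± 0.17 for Ctgf. Of all genes, 1.09% passed edgeR's test between times in kidney air (adjusted p under 0.05), and how many separate was not counted.

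Ctgf, the secreted CCN protein, moved in opposite directions in the 2 organs. Lung air libraries held 218, 197, 164 and 213 CPM at ZT4-8 and 616, 587, 810 and 657 CPM at 6%. At ZT16-20 they held 227, 234, 333 and 230 CPM in air and 844, 693, 715 and 820 CPM at 6%. Lung groups did not overlap, with log2 differences of 1.75 ± 0.14 and 1.58 ± 0.14. Kidney air libraries held 125, 147, 115 and 93.8 CPM at ZT4-8 and 57.2, 48.9, 70.3 and 62.0 CPM at 6%. At ZT16-20 kidney held 114, 101, 173 and 108 CPM in air and 57.0, 65.3, 57.3 and 83.8 CPM at 6%. Every kidney library at 6% lay below every kidney air library of its time, with differences of -1.01 ± 0.18 and -0.91 ± 0.18. The kidney groups of the other members overlapped at both times. How many of all genes have lung or kidney groups that separate was not counted. Fibroblast markers in kidney (6 of 7 listed) summed to 261 to 320 CPM in air and 234 to 315 CPM at 6% at ZT4-8, and to 339 to 506 and 204 to 303 CPM at ZT16-20, where they did not overlap. Of these 6, 1 rose and 1 fell at ZT4-8 and 1 fell at ZT16-20, and their part in the Ctgf difference was not tested.

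**Figure D1:**
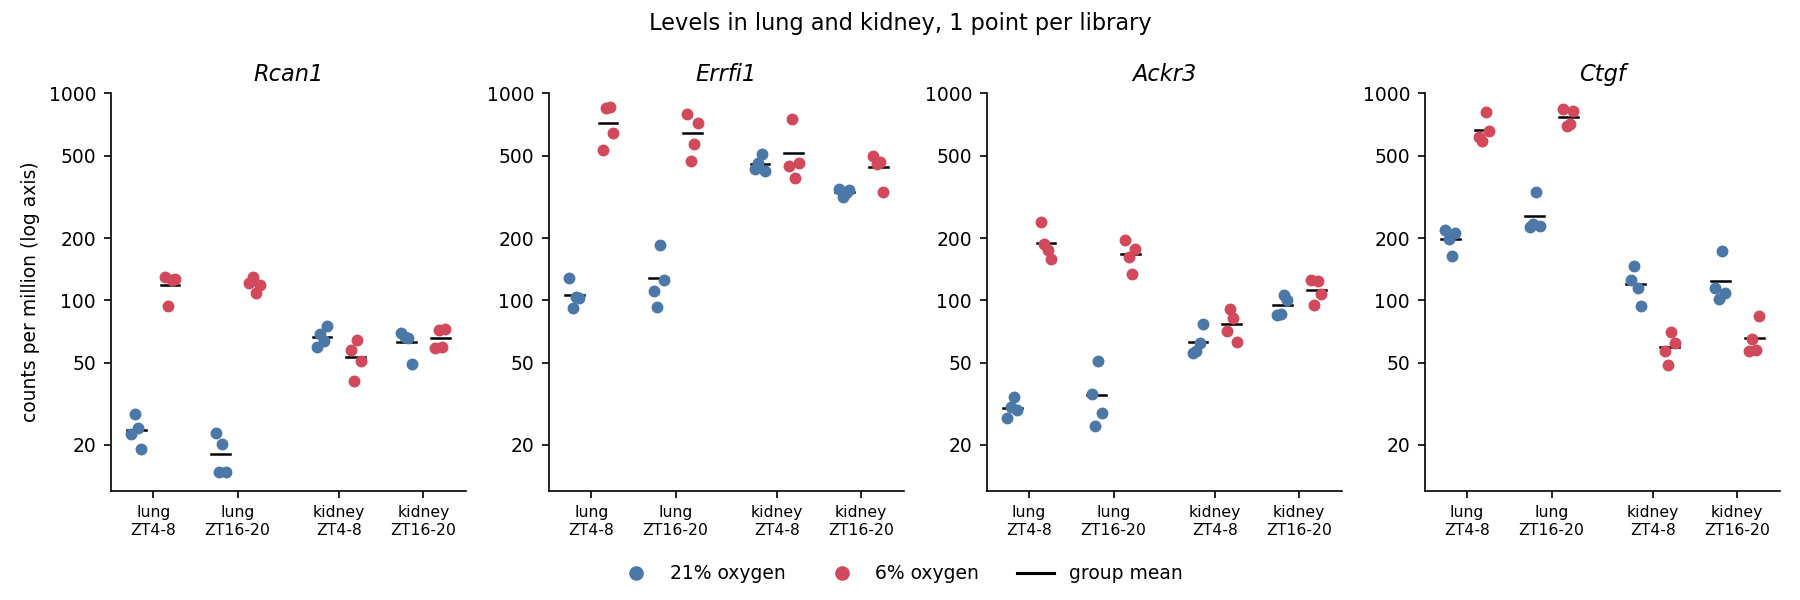
Levels of the 4 genes in each lung and kidney library (CPM scaled by TMM, log axis), by time and oxygen, with each point a mouse and each bar the group mean. Lung libraries at 6% oxygen lie above lung libraries in air for all 4 genes, kidney libraries overlap for Rcan1, Errfi1 and Ackr3, and kidney Ctgf is lower at 6%.

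Between times, the lung response at ZT16-20 minus that at ZT4-8 was 0.35 ± 0.21 (log2) for Rcan1, -0.45 ± 0.30 for Errfi1, -0.41 ± 0.25 for Ackr3 and -0.17 ± 0.19 for Ctgf. In the 1 fit across the 3 organs, with libraries of the same time, oxygen and letter taken as 1 mouse and used as a block, the lung response minus the kidney response averaged over both times was 2.69 ± 0.16 for Rcan1 and 2.68 ± 0.19 for Ctgf. It was 2.32 ± 0.18 for Errfi1 and 2.23 ± 0.18 for Ackr3. Ordered by this difference among the 10649 genes in the fit, Rcan1 was at place 3, Ctgf at 4, Errfi1 at 12 and Ackr3 at 13, which describes how they were chosen. The share of all genes called (edgeR's quasi-likelihood test, Benjamini-Hochberg adjusted p of at most 0.05) in either direction was 22.6% and 21.1% for lung at ZT4-8 and ZT16-20, 5.28% and 6.9% for kidney, and 8.05% for this difference. Rcan1 also responded more in lung than in liver, by 0.86 ± 0.17, but the gap was 1.43 ± 0.23 at ZT4-8 and 0.29 ± 0.25 at ZT16-20. Errfi1 and Ctgf exceeded liver by 2.31 ± 0.18 and 1.75 ± 0.25.

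Some cell-type markers moved with the lung differences. In whole organs a change in the number of cells of a type and a change in RNA per cell cannot be told apart. The 12 endothelial markers summed to 4820 to 5280 CPM in lung air and 6240 to 7270 CPM at 6% at ZT4-8, and to 4060 to 5110 and 4750 to 6180 CPM at ZT16-20. Of these 12, 4 rose and 1 fell at ZT4-8, and 3 rose and 2 fell at ZT16-20. Smooth muscle and pericyte markers summed to 879 to 976 and 961 to 1130 CPM at ZT4-8, and to 584 to 805 and 995 to 1290 CPM at ZT16-20. Neutrophil markers summed to 307 to 515 CPM in air and 346 to 640 CPM at 6% at ZT4-8, which overlapped. At ZT16-20 they summed to 56.1 to 126 and 244 to 437 CPM. Of the 5 neutrophil markers, 1 rose at ZT4-8 and 4 rose at ZT16-20. Of 6 smooth muscle and pericyte markers tested in lung, 2 rose at ZT4-8 and 4 rose at ZT16-20. Of 5 alveolar type 1 markers tested, 2 rose at ZT4-8 and 1 rose at ZT16-20. Of 6 fibroblast markers tested, 1 fell at each time. No alveolar type 2, club and ciliated, or leukocyte marker was called in lung at either time. These counts stand beside 22.6% and 21.1% of all genes called in lung. In kidney the endothelial sum was 271 to 369 and 259 to 322 CPM at ZT4-8 and 306 to 331 and 313 to 418 CPM at ZT16-20. The part of these cell types in the members' values was not tested. Without the 3 lung air libraries named above, the lung differences were 2.53 and 2.61 for Rcan1, 2.66 and 2.31 for Errfi1, 2.75 and 2.15 for Ackr3, and 1.64 and 1.55 for Ctgf, with each in the same direction as before.

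In liver, which the choice of genes did not use, Rcan1 rose at 6% oxygen in 5 of 6 settings, Errfi1 rose in 1, and Ctgf rose in 1 and fell in 1. Ackr3 was at 0 to 11 counts per liver library, below the low-count filter in all 3 liver tables, so its liver values have no test. The share of all genes called in these 6 settings ran from 4.51% to 20.3%. Over 16 liver comparisons and 3 testable genes, 17 of 48 tests passed, with 0.0117% to 20.3% of all genes called in a comparison. Liver samples were led by their own cells: the 6 hepatocyte markers summed to 103000 to 165000 CPM in the light-dark libraries.

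In light-dark liver, Rcan1 rose at both times, and more at ZT16-20. At ZT4-8 it stood at 10.8, 22.2, 12.4 and 11.4 CPM in air and 19.9, 24.5, 30.7 and 31.9 CPM at 6%. At ZT16-20 it stood at 7.46, 8.86, 8.31 and 3.16 CPM in air and 34.7, 48.3, 31.8 and 36.3 CPM at 6%. The groups overlapped through air library B at ZT4-8 and were far apart at ZT16-20. The response was 0.92 ± 0.25 (log2) with an adjusted p of 0.0232 at ZT4-8, and 2.42 ± 0.27 with an adjusted p of 2.73e-06 at ZT16-20, in fits where 9.64% and 20.3% of all genes were called. The response was 1.51 ± 0.37 larger at ZT16-20 (adjusted p 0.0319, with 2.06% of genes called), and the air level was lower at ZT16-20 by -1.01 ± 0.28 (adjusted p 0.0357, 5.91% called). The ZT4-8 call was lost without air library A, C or D or 6% library C or D (lowest 0.80, adjusted p 0.0865). The difference between times was lost without any of 6 libraries (ZT4-8 air B, ZT4-8 6% A or B, ZT16-20 air A or D, ZT16-20 6% B), and that in air without any of 4 (ZT4-8 air B, ZT16-20 air A, C or D).

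Errfi1 in light-dark liver in air already stood near the level of lung at 6%, and its differences did not pass the test. It held 785, 572, 685 and 416 CPM in air and 807, 939, 812 and 661 CPM at 6% at ZT4-8, with a difference of 0.39 ± 0.19 (95% interval 0 to 0.78, adjusted p 0.213). At ZT16-20 it held 798, 570, 500 and 721 CPM in air and 752, 780, 739 and 508 CPM at 6%, with a difference of 0.10 ± 0.19 (-0.28 to 0.49, adjusted p 0.738). Ctgf was low, at 6.58, 4.13, 2.64 and 4.91 CPM in air and 5.53, 1.35, 5.70 and 3.07 CPM at 6% at ZT4-8. At ZT16-20 Ctgf held 8.03, 4.67, 7.66 and 3.65 CPM in air and 1.88, 8.76, 5.10 and 11.5 CPM at 6%. All of these groups overlapped, and neither Ctgf difference passed (-0.19 ± 0.47 with adjusted p 0.856, and 0.14 ± 0.44 with adjusted p 0.851). Ackr3 stood at 0 to 7 counts in these 16 libraries.

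In wild-type liver in darkness, Rcan1 rose at CT16-20, Errfi1 at CT4-8, and Ctgf rose at CT4-8 and fell at CT16-20. Rcan1 held 23.2, 14.3, 18.5 and 11.4 CPM in air and 18.1, 23.9, 28.9 and 22.7 CPM at 6% at CT4-8. At CT16-20 it held 17.4, 16.0, 12.3 and 16.3 CPM in air and 47.8, 36.1, 45.7 and 45.7 CPM at 6%. Only the CT16-20 groups separated. Rcan1's difference was 0.51 ± 0.22 (adjusted p 0.134) at CT4-8, in a comparison where 11.8% of genes were called, and Rcan1 rose by 1.51 ± 0.21 (adjusted p 3.96e-05) at CT16-20, where 9.83% were called. Its difference between times, 1 ± 0.3, did not pass (adjusted p 0.105). Without CT4-8 air A, the library that stood apart, Rcan1's CT4-8 difference was 0.70 and passed (adjusted p 0.028).

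Errfi1 was lowest in air at CT4-8 in this table, and rose there. It held 356, 435, 384 and 409 CPM in air and 794, 710, 672 and 652 CPM at 6%, with no overlap. At CT16-20 it held 734, 746, 762 and 553 CPM in air and 692, 508, 518 and 518 CPM at 6%. Errfi1 rose by 0.83 ± 0.15 (adjusted p 0.000548) at CT4-8, while its CT16-20 difference was -0.32 ± 0.15 (adjusted p 0.18). The difference between times, -1.16 ± 0.21, passed (adjusted p 0.00436, in a comparison with 1.62% of genes called). In air Errfi1 was 0.82 ± 0.15 higher at CT16-20 than at CT4-8 (adjusted p 0.00223, 3.66% called). Without CT4-8 air A these 3 values were 0.81, -1.14 and 0.79, with adjusted p of 0.00024, 0.000754 and 0.000759.

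Ctgf in this table rose at 6% at CT4-8 and fell at CT16-20. Its CT4-8 air libraries held 3.57, 3.04, 6.32 and 5.35 CPM (6, 7, 14 and 16 counts) and its 6% libraries 16.9, 6.99, 8.78 and 8.51 CPM (29, 12, 17 and 18 counts). At CT16-20 the air libraries held 14.1, 23.3, 9.74 and 14.4 CPM and the 6% libraries 3.33, 3.65, 5.82 and 5.58 CPM. Neither pair of groups overlapped. Ctgf rose by 1.13 ± 0.35 (adjusted p 0.0411) at CT4-8 and changed by -1.74 ± 0.33 (adjusted p 0.00145) at CT16-20. Between times the response differed by -2.87 ± 0.49 (adjusted p 0.00356), and the air level by 1.71 ± 0.33 (adjusted p 0.00364). The CT4-8 call was lost without any of 6 of its 8 libraries (air A, B or D, 6% A, C or D), with the lowest value 0.81 (adjusted p 0.174). Without CT4-8 air A the CT4-8 value was 1.06 (adjusted p 0.0598), and the difference between times was -2.81 (adjusted p 0.00168). Fibroblast markers summed to 125 to 199 CPM in CT4-8 air and 169 to 312 CPM at 6%. At CT16-20 they summed to 161 to 199 CPM in air and 124 to 237 CPM at 6%. None of the 5 fibroblast markers tested was called at either time, and their part in the Ctgf values was not tested. Ackr3 stood at 1 to 8 counts in these libraries.

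In liver labelled KO, Rcan1 rose by nearly the same amount at both times. At CT4-8 it held 23.4, 19.5, 11.4 and 21.5 CPM in air and 43.4, 48.7, 45.7 and 39.1 CPM at 6%. At CT16-20 it held 17.2, 17.4, 21.2 and 25.3 CPM in air and 48.6, 34.8 and 63.6 CPM in the 3 libraries at 6%. Both pairs separated, with 1.23 ± 0.22 (adjusted p 0.00139) and 1.25 ± 0.22 (adjusted p 0.00188), in comparisons where 5.59% and 4.51% of genes were called. The difference between times was 0.02 ± 0.32 (95% interval -0.64 to 0.68, adjusted p 0.993, with 0.0117% of genes called), and in air Rcan1 differed between times by 0.12 ± 0.24 (adjusted p 0.941, 0.0235% called). KO libraries at 6% were also deeper than those in air, at 1963106 to 2484622 against 1591073 to 1910872 counts at CT4-8 and 2796286 to 3768161 against 1443279 to 2020619 at CT16-20.

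Errfi1 and Ctgf did not pass in liver labelled KO. Errfi1 held 725, 480, 600 and 486 CPM in air and 510, 644, 530 and 785 CPM at 6% at CT4-8, and 675, 563, 669 and 733 against 682, 661 and 710 CPM at CT16-20. Its differences were 0.11 ± 0.16 (adjusted p 0.784) and 0.05 ± 0.18 (adjusted p 0.916), with the groups overlapping throughout. Ctgf held 44.5, 7.60, 16.1 and 10.1 CPM in air (82, 14, 31 and 16 counts) and 6.80, 8.20, 4.65 and 5.43 CPM at 6% at CT4-8. At CT16-20 it held 29.7, 18.8, 17.4 and 16.3 CPM in air and 4.59, 4.54 and 9.28 CPM at 6%, all below the air libraries. These differences were -1.64 ± 0.49 (adjusted p 0.0655) and -1.76 ± 0.51 (adjusted p 0.0606), and DESeq2 gave an adjusted p of 0.0123 for each. Ctgf also passed at CT16-20 with a replicate block (-1.86, adjusted p 0.0365) and with only the libraries compared (-1.76, adjusted p 0.00335), and at CT4-8 without air B (-1.91, adjusted p 0.0215) or air D (-1.84, adjusted p 0.0463). Air library A at CT4-8 was far above the other 3. Ackr3 stood at 0 to 2 counts in air and 1 to 11 counts at 6%, including 5, 11 and 4 at CT16-20, where the 6% libraries were deeper. Scaled for depth, its CT16-20 levels were 0 to 0.696 CPM in air and 1.35 to 2.77 CPM at 6%, without overlap, at counts too low for a test. In every other liver setting the Ackr3 groups overlapped. In wild-type darkness at CT4-8 its mean was lower at 6% (1.18 CPM against 2.05 CPM in air). How many genes at such low counts separate was not counted.

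**Figure D2:**
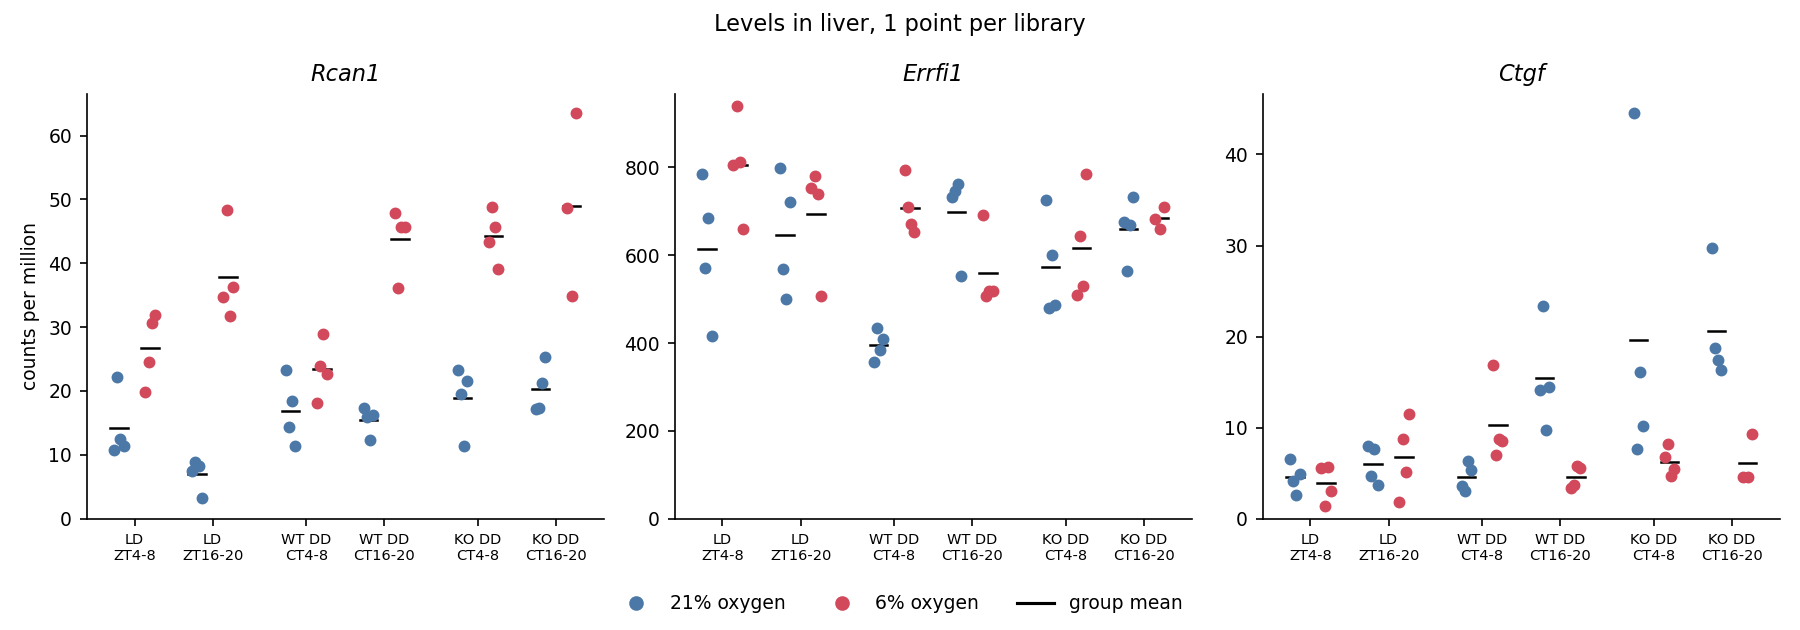
Levels of Rcan1, Errfi1 and Ctgf in each liver library (CPM scaled by TMM, linear axis from 0), in light-dark (LD), wild-type darkness (WT DD) and darkness labelled KO (KO DD), by time; each point is a mouse, blue in air and red at 6% oxygen, and each bar is a group mean. Red points lie above blue for Rcan1 in most settings, and for Ctgf the order of the colours turns between CT4-8 and CT16-20 in wild-type darkness.

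The genotype labels differed most for Ctgf at CT4-8. In the joint fit of both darkness tables, the KO response minus the wild-type response was -2.78 ± 0.63 for Ctgf (adjusted p 0.0145), where 2.42% of genes were called. It was -0.74 ± 0.22 for Errfi1 (adjusted p 0.0603) and 0.71 ± 0.31 for Rcan1 (adjusted p 0.237). In air at CT4-8, where 4.51% were called, Ctgf was 2.09 ± 0.44 higher in KO (adjusted p 0.00389) and Errfi1 0.55 ± 0.15 higher (adjusted p 0.0319). At CT16-20 no member passed, for the response (adjusted p 0.611 to 0.995, with 0.0444% of genes called) or in air (adjusted p 0.408 to 0.885, with 2% called). Leaving out KO air A at CT4-8 ended the Ctgf air call (1.29, adjusted p 0.059), and the Errfi1 air call was lost without wild-type air A, C or D or KO air A or C. Without wild-type CT4-8 air A, the Ctgf response difference was -2.69 (adjusted p 0.034), and over all libraries left out it lay between -3.04 and -1.98. Genotype coincides with the table, so the labels and any difference between the tables cannot be told apart.

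**Figure D3:**
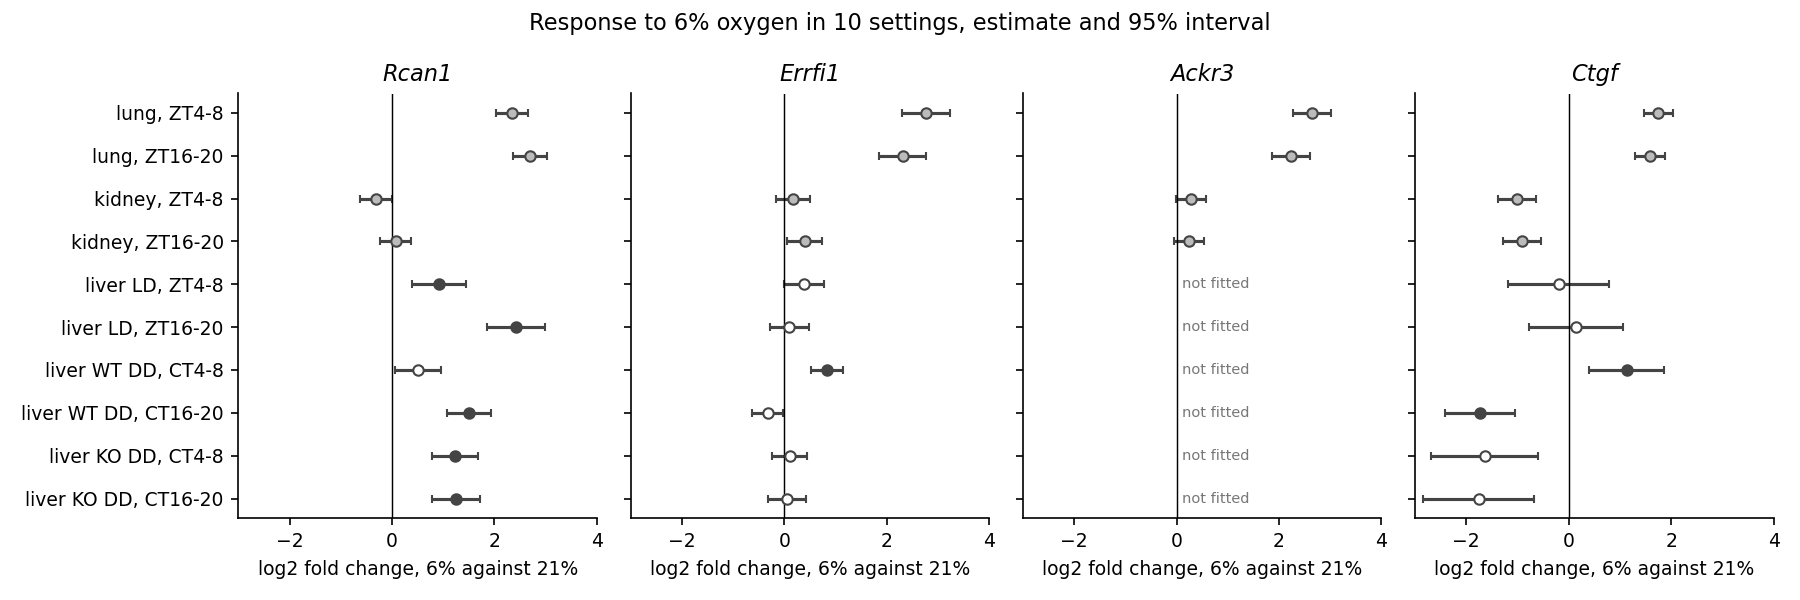
Oxygen responses of the 4 genes (log2 fold change, 6% against 21% oxygen, with 95% intervals) in 10 settings; grey points were not tested, black points passed the test and open points did not. Lung values lie between 1.58 and 2.76, kidney values between -1.01 and 0.40, and the liver values of Rcan1 are all above 0 while those of Ctgf lie on both sides.

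Over the 20 groups, each gene had its own order of levels. Rcan1 was highest in lung at 6% (120 ± 8.69 and 119 ± 16.9 CPM, SD, n = 4), with no overlap with the next group, kidney air at ZT4-8 (66.6 ± 6.92 CPM). The 4 kidney groups overlapped one another, and light-dark liver in air at ZT16-20 (6.95 ± 2.59 CPM) was the lowest and did not overlap the group above it. Errfi1 was lowest in lung air (106 ± 15.5 and 129 ± 39.5 CPM), followed by kidney air at ZT16-20 (333 ± 12.9 CPM). Lung at 6% (721 ± 162 and 641 ± 148 CPM) lay among the liver groups, and neighbours from 396 CPM upward overlapped. Ackr3 fell into 4 separated bands, with lung at 6% (190 ± 34.2 and 168 ± 26.5 CPM) above kidney (62.8 to 113 CPM), kidney above lung air (30.2 and 34.9 CPM), and lung air above every liver group (0.42 to 2.05 CPM). Ctgf ran from lung at 6% (768 ± 75.1 and 668 ± 99.4 CPM) through lung air (256 ± 51.5 and 198 ± 24.4 CPM), kidney air (124 ± 32.8 and 120 ± 22.2 CPM) and kidney at 6% (65.9 ± 12.6 and 59.6 ± 8.97 CPM) to liver (3.91 to 20.6 CPM). For Ctgf, lung air at ZT4-8 (lowest 164 CPM) overlapped kidney air at ZT16-20 (highest 173 CPM) but not kidney air at ZT4-8 (highest 147 CPM).

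Around Rcan1, of the 21 genes listed for calcineurin and NFAT signalling, all 21 were tested in lung, where 4 rose and 2 fell at ZT4-8 and 4 rose at ZT16-20, with medians of 0.06 and 0.11 (log2) beside 0 and -0.01 for all genes, of which 22.6% and 21.1% were called. Calm2, a calmodulin gene, rose by 0.49 and 0.59, Mef2a, a calcium-responsive transcription factor gene, by 0.44 and 0.36, and Ppp3ca, the calcineurin catalytic subunit gene, by 0.35 at ZT16-20. Nfatc4 changed by -0.62 and Mef2d by -1.25 at ZT4-8. In kidney none of the 19 tested passed at either time, with 5.28% and 6.9% of all genes called. The lung response exceeded the kidney response for Calm2 (0.48 ± 0.13), Nfatc1 (0.56 ± 0.17) and Mef2a (0.49 ± 0.16), 3 of 19 tested. The median difference of the 19 was 0.24 beside 0.02 for all genes, of which 8.05% were called.

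Around Errfi1, some ligands and feedback inhibitors of the EGF receptor pathway rose in lung. Of 19 tested genes, 6 rose and 2 fell at each time, with medians of 0.21 and 0.30 beside 0 and -0.01 for all genes, of which 22.6% and 21.1% were called in either direction. Hbegf, an EGF receptor ligand, rose by 2.16 ± 0.13 and 2.59 ± 0.13. Areg, another ligand, rose by 1.88 and 1.49. Dusp6, a phosphatase that shuts off ERK, rose by 1.87 ± 0.11 and 1.63 ± 0.11, and Spry4, an inhibitor of receptor signalling, by 2.48 ± 0.17 and 2.23 ± 0.18. In kidney Hbegf also rose, by 2.00 ± 0.27 and 1.72 ± 0.27, while Dusp6 changed by -0.97 ± 0.18 at ZT4-8, the 2 calls and 1 call among 18 tested, where 5.28% and 6.9% of all genes were called. The lung response exceeded the kidney response for Dusp6 (2.56 ± 0.21, adjusted p 1.76e-11) and Spry4 (2.21 ± 0.24, adjusted p 1.12e-08), and in all 4 of 17 tested genes were higher and 1 lower, with 8.05% of all genes called. The pathway lists were chosen with earlier results of these data known, so these calls are no independent support. In light-dark liver Dusp6 rose by 1.63 ± 0.28 and 1.42, and Spry4 by 1.5 and 1.19, while Lrig3 changed by -1.54 and -0.97. Spred1, another inhibitor of receptor signalling, changed by -0.83 at ZT16-20. These made 2 higher and 1 lower of 13 tested at ZT4-8 and 2 higher and 2 lower at ZT16-20, with medians of 0.11 and -0.29 and with 9.64% and 20.3% of all genes called. In darkness 1 of 12 wild-type genes passed at each time (Grb2 higher, Lrig3 lower) and none of 10 passed in liver labelled KO, where 11.8% and 9.83% of all genes were called in wild type and 5.59% and 4.51% in KO.

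Around Ackr3, the ligand adrenomedullin rose in both organs. Of 15 tested genes of the CXCL12 and adrenomedullin axis in lung, 4 rose and 2 fell at ZT4-8 and 4 rose and 4 fell at ZT16-20, with medians of 0 and 0.10 beside 0 and -0.01 for all genes, of which 22.6% and 21.1% were called. Adm, the adrenomedullin gene, rose by 2.28 ± 0.21 and 1.36 in lung and by 1.88 ± 0.33 and 1.38 ± 0.30 in kidney, the 1 call among 9 tested there at each time, with 5.28% and 6.9% of all genes called. Ramp3, a partner of the adrenomedullin receptor, rose in lung by 2.15 ± 0.39 and 2.01, and Ackr2, another atypical chemokine receptor, by 0.78 and 1.02. Ramp2 changed by -0.88 at ZT4-8 and Calcrl, the receptor itself, by -0.89 at ZT16-20. In liver, Adm rose by 1.67 in KO at CT4-8 and Cxcl12 changed by -0.57 in light-dark at ZT16-20. No other listed gene passed, with 4.51% to 20.3% of all genes called in the liver settings. Between lung and kidney, Ramp2 alone of 9 tested differed (-0.54), with 8.05% of all genes called.

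Around Ctgf, its CCN relative Cyr61 rose in kidney, where Ctgf was lower. Of 24 tested YAP, TAZ, TEAD and CCN genes in lung, 4 rose and 3 fell at ZT4-8 and 4 rose and 6 fell at ZT16-20, with medians of -0.01 and 0.02 beside 0 and -0.01 for all genes, of which 22.6% and 21.1% were called. Cyr61 rose by 2.09 ± 0.25 and 1.51 ± 0.25 in lung and by 1.35 ± 0.17 and 0.89 ± 0.17 in kidney. Stk4, a kinase of the Hippo pathway, changed by -1.12 and -0.68 in lung. In kidney 3 of 23 rose at ZT4-8, and 2 rose and 3 fell at ZT16-20, with Yap1 at -0.58 and Lats2 at -0.50, beside 5.28% and 6.9% of all genes called. Cyr61 also rose in liver by 3.55 ± 0.76 in light-dark at ZT4-8, by 2.02 ± 0.53 in wild-type darkness at CT16-20, and by 3.60 ± 0.78 in KO at CT4-8. Amotl2, a YAP target that binds YAP, fell in both light-dark and wild-type darkness liver (-0.69, -1.14, -0.64 and -0.86). Its lung response was lower than its kidney response by -0.83, and that of Stk3 was higher by 0.85. These were the 2 calls among 23 tested, with 8.05% of all genes called.

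**Figure D4:**
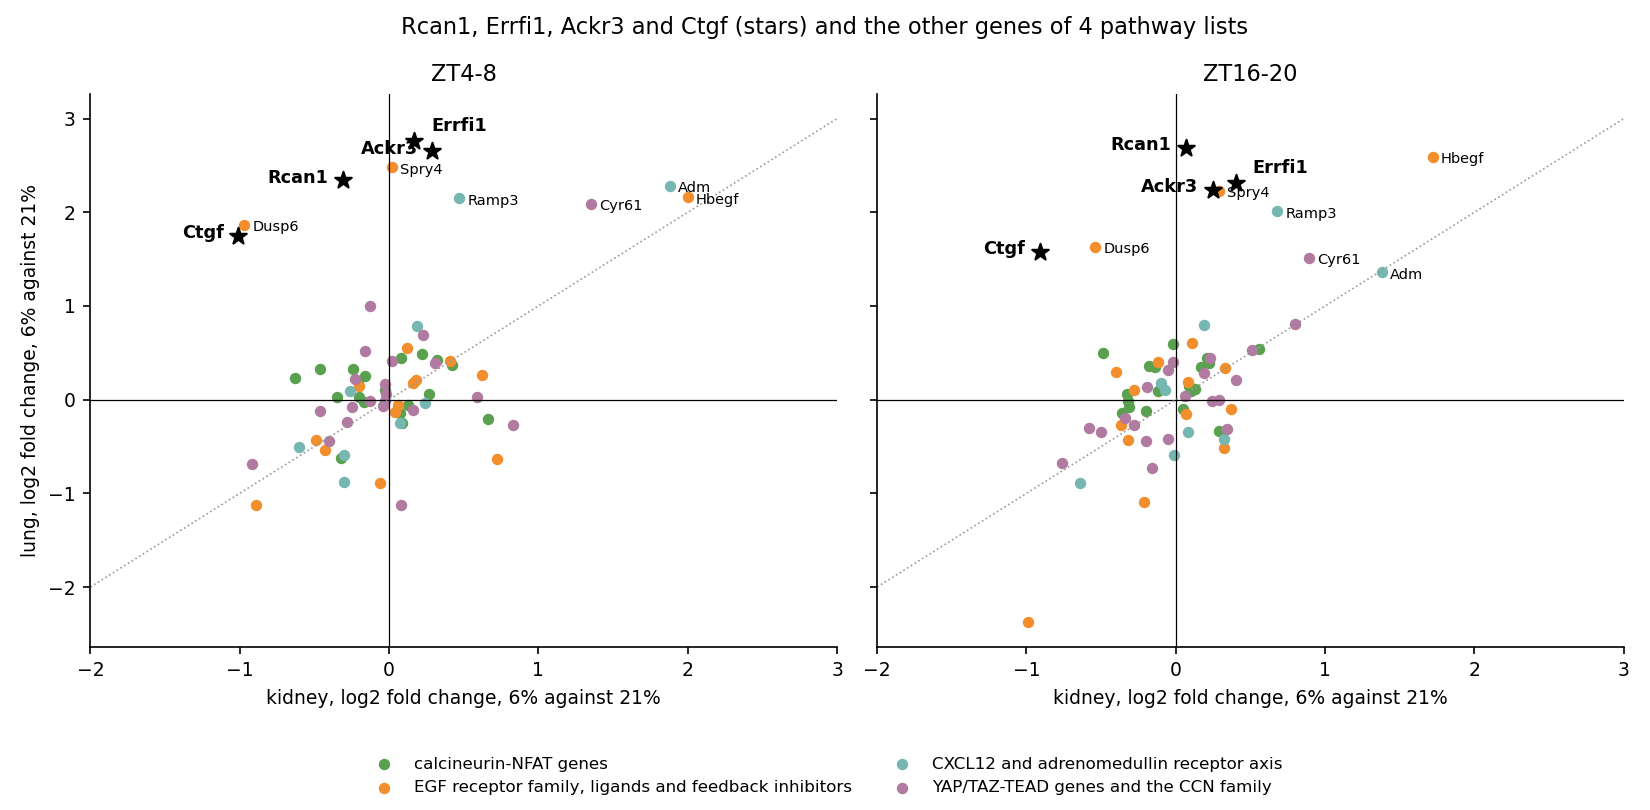
Oxygen responses (log2 fold change, 6% against 21% oxygen) in kidney on the horizontal and lung on the vertical axis, at both times; stars are the 4 members, coloured points the other genes of the 4 lists, and the dotted line marks equal responses. Dusp6 (1.87 in lung, -0.97 in kidney at ZT4-8) and Spry4 lie near the stars, and Hbegf and Adm lie near the line.

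Across the 10 settings (5 tables at 2 times), the genes whose responses were most like a member's were named by Pearson r among 1312 genes tested in all settings with a response of at least 1 (log2) in any of them, as a description, since settings of a table share libraries and depth and the lung and kidney responses among them chose the members. For Rcan1 these were Pde4b (0.89, with lung responses of 2.66 and 2.25), Srxn1 (0.887), Slc20a1 (0.879) and Dusp6 (0.853). For Errfi1 they were Tmcc3 (0.968, with lung responses of 2.23 and 1.77), Spryd7 (0.96), Bmp1 (0.956) and Pdlim5 (0.905). For Ctgf they were Tbc1d8 (0.932), Stag2 (0.907), Zfp422 (0.882) and Rnf217 (0.881). Their lung responses were 1.29 and 0.75 for Tbc1d8, 0.28 and -0.29 for Stag2, 1.02 and 0.69 for Zfp422, and 1.61 and 1.25 for Rnf217. Ackr3 was fitted in 4 settings only and has no such list.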

How the data were processed

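Whole liver, kidney and lung RNA was measured in 79 libraries, 1 per mouse and organ. The authors deposited 5 tables of raw gene counts, made from total RNA whose cDNA amounts were evened by qPCR of actin, pooled and amplified by in vitro transcription, per the labels' protocols. Per the submitters' processing notes, HTSeq, STAR, cutadapt and bcl2fastq were used with mm10, and no versions are given. Groups came from the labels. Genes that passed edgeR's filterByExpr (minimum count 10, minimum total 15) were fitted with TMM scaling and edgeR 4.0.16's quasi-likelihood test (R 4.3.3, limma 3.58.1), with Benjamini-Hochberg adjustment over all genes of a fit and a threshold of 0.05; 9451 genes were tested in light-dark liver, 10878 in kidney, 12150 in lung, 8507 and 8520 in the darkness tables. The scripts were tested on simulated data. Differences between tissues came from 1 fit of 48 libraries with the mouse as a block, taken from matching time, oxygen and letter, and between genotypes from 1 fit of 31.

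The 4 genes and the pathway and marker lists were chosen with earlier results of these data known, and the list of squamous epithelium and skeletal muscle genes and the analysis without 3 lung libraries were chosen after seeing the data. Beyond the 4 genes, the text names up to 4 called genes per list and setting by smallest p, the 4 genes most like each member, and marker genes. Alternatives were RLE scaling, no filter, DESeq2 1.42.0, a replicate block, only the libraries compared, thinned counts and each library left out. Libraries of a group are separate mice, per the series' design text. Whether replicate letters pair libraries within a table was checked by the correlation of deviations from group means, whose median lay between -0.0641 and -0.0142, so the letters share only a name there. Each mouse of the first set gave all 3 organs, per the series' design text, but no label ties a letter to a mouse across organs, and the median correlation of same-letter libraries was 0.044 for liver and kidney, -0.0056 for liver and lung and 0.0455 for kidney and lung. Promoters came from RefSeq (GRCm38.p6).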

Additional observations from a re-analysis of the deposited data

Results flagged for a closer look

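Of 76 sets of values, each 1 gene in 1 group of 4 libraries, 6 had 1 library far from the other 3 by Dixon's test at its 95% critical value, and chance marks about 1 in 20 sets. Rcan1 stood at 22.2 CPM in light-dark liver at ZT4-8 in air, library B, with the others at 10.8 to 12.4. In lung at ZT4-8 and 6%, Rcan1 stood at 93.9 CPM in library B, with the others at 126 to 129. Errfi1 stood at 508 CPM in light-dark liver at ZT16-20 and 6%, library D (others 739 to 780). In wild-type darkness at CT16-20 Errfi1 stood at 553 CPM in air library D (others 734 to 762) and at 692 CPM in 6% library A (others 508 to 518). Ctgf stood at 333 CPM in lung air at ZT16-20, library C (others 227 to 234).

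The response differed between groups for Rcan1 between times in light-dark liver (1.51, log2), for Errfi1 (-1.16) and Ctgf (-2.87) between times in wild-type darkness liver, and for Ctgf between genotype labels at CT4-8 (-2.78), each by a test of the difference. Ctgf was higher at 6% in every lung library and lower in every kidney library, a difference of 2.79 at ZT4-8 and 2.57 at ZT16-20, and this difference was not tested because the choice of genes used it.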

How the results depend on the processing

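Over 48 tested liver results, 17 of them called, 253 of 266 values under alternatives and 421 of 495 values without a library kept direction and side of the threshold, and 24 results did so throughout. Signs changed in 45 values of 14 results, in none that was called, and the cause was not tested. Under a replicate block, Ctgf was 1.12 (edgeR adjusted p 0.0689) in wild-type darkness at CT4-8 and -1.86 (0.0365) in KO at CT16-20, no other call of a member changed, and calls went to 20 from 40 (kidney, between times), 242 from 384 (KO, CT16-20) and 7 from 4 (genotype response, CT16-20). With only the libraries compared, Rcan1 between times in light-dark air was -1.02 (0.0734), Ctgf 1.15 (0.0792) in wild-type darkness at CT4-8 and -1.76 (0.00335) in KO at CT16-20, and the KO minus wild-type air values at CT4-8 were 2.1 for Ctgf (0.0742) and 0.56 for Errfi1 (0.163). DESeq2 gave -1.64 and -1.75 for Ctgf in KO (0.0123 each) and -0.73 for Errfi1's genotype response at CT4-8 (0.0182). Thinned counts gave 0.03 for Rcan1 between times in wild-type darkness air, and 0.02 for Errfi1 and -0.04 for Rcan1 for the KO response between times. Counts of called genes moved by over 1.5 times with only the libraries compared (kidney ZT4-8 574 to 264, kidney air 119 to 50, lung air 119 to 77, wild-type CT4-8 1001 to 526, wild-type air 311 to 123, KO air 2 to 9, genotype response 218 to 126 and 4 to 7, genotype air 406 to 96), with DESeq2 (kidney 40 to 86, kidney air 211, lung 31 to 66, lung air 210, KO 1 to 26, KO air 32, genotype response 33) and with thinning (wild-type CT16-20 836 to 556, KO 1 to 2). Without the 3 lung air libraries, Rcan1 in lung was 0.08 for the response between times and -0.07 in air, the lung minus kidney difference of Ctgf at ZT4-8 was 2.51, and calls went to 19 (lung response between times), 29 (lung air), 146 from 390 (lung minus kidney, ZT4-8) and 488 from 857 (its mean). With each library left out, light-dark liver values ran from 0.8 to 1.21 (Rcan1) and -0.42 to 0.05 (Ctgf) at ZT4-8, and from -0.23 to 0.48 (Ctgf) and -0.0 to 0.23 (Errfi1) at ZT16-20. Between times there they ran from 1.21 to 1.64 (Rcan1) and -0.03 to 0.67 (Ctgf) for the response, and from -1.14 to -0.71 (Rcan1) and -0.07 to 0.22 (Errfi1) in air. In wild-type darkness at CT4-8 they ran from 0.81 to 1.33 (Ctgf) and 0.35 to 0.7 (Rcan1), and between times in air from -0.26 to 0.1 (Rcan1). In KO they ran from -1.91 to -0.85 (Ctgf) and -0.03 to 0.24 (Errfi1) at CT4-8, from -0.02 to 0.11 (Errfi1) at CT16-20, from -0.91 to 0.15 (Ctgf), -0.18 to 0.08 (Errfi1) and -0.2 to 0.22 (Rcan1) for the response between times, and from -0.22 to 0.84 (Ctgf) and -0.07 to 0.23 (Rcan1) in air. KO minus wild type ran from -0.87 to -0.6 (Errfi1 response, CT4-8), 1.29 to 2.36 (Ctgf) and 0.41 to 0.62 (Errfi1) in air at CT4-8, and -0.41 to 0.21 (Ctgf response, CT16-20). Counts of called genes that moved by over 1.5 times ran from 342 to 1017 (kidney ZT4-8), 346 to 486 from 559 (light-dark air), as low as 615 from 1001 (wild-type CT4-8), 68 to 197 from 138 (wild type between times), 175 to 341 (wild-type air), 287 to 556 from 476 (KO CT4-8), 167 to 309 (KO CT16-20), 1 to 13 (KO between times), 0 to 1 (KO air), 119 to 339 and 2 to 10 (genotype response), and 228 to 473 and 78 to 176 from 180 (genotype air). Without the block by letter, the mean lung minus kidney differences were 2.68 (Rcan1), 2.67 (Ctgf), 2.29 (Errfi1) and 2.21 (Ackr3). Ackr3 in liver was too low in counts for a test.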

Other observations

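Whether the reversal of Ctgf between times in wild-type liver belongs to constant darkness was looked at with a comparison added after the values were seen. The difference between times in the response, in darkness minus light-dark, was -3.21 ± 0.85 (log2) for Ctgf (edgeR adjusted p 0.099), -0.88 ± 0.34 for Errfi1 (adjusted p 0.319) and -0.51 ± 0.49 for Rcan1 (adjusted p 0.772), in a comparison where 0.242% of genes were called. In air the same comparison gave 1.36 ± 0.59 for Ctgf (adjusted p 0.334), 0.76 ± 0.24 for Errfi1 (adjusted p 0.177) and 0.93 ± 0.37 for Rcan1 (adjusted p 0.28), with 0.274% called. None passed, and the light regimen coincides with the table.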
